A study of Homo sapiens with 14 samples.

Results

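Keratins are the intermediate filament proteins of epithelial cells, and their genes were described here across MCF-10A cells carrying YAP 5SA or forms of MRTFB. The members are all loci of the deposited expression table that carry a keratin gene symbol (KRT with a number and, in some genes, a letter), with the locus of highest mean level kept for each gene. This gave 55 keratin genes in 52 loci out of 27543 named loci. Of these 52 loci, 24 loci, which hold 27 genes, reached 1 FPKM (fragments per kilobase of transcript, scaled to the number of mapped fragments) in at least 1 library, and the same number did so in at least 2 libraries. The other 28 stayed below 1 FPKM in all libraries, and 6 of them were listed at 0 throughout.

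MCF-10A is a human breast epithelial cell line that grows in culture without limit and does not form tumours, and RNA was taken 2 days after infection with a retrovirus. The 14 libraries form 7 groups of 2. The controls carry the empty pMSCV Hygro or the empty pMSCV Puro vector. YAP 5SA is a hyperactive form of YAP, which acts through TEAD factors. MRTFB dN is a form of MRTFB, a coactivator of SRF, that does not bind G-actin. MRTFB dN dPY in addition cannot bind YAP, MRTFB dN Y305A in addition cannot bind SRF, and MRTFB dN Y305A/dPY can bind neither. All groups are infected populations of 1 cell line, the genes are introduced on top of the cells' own YAP and MRTFB, and the labels do not say which vector carried which construct. As a choice made here, YAP 5SA was set against the Hygro vector and each MRTFB form against the Puro vector, and values with the vectors exchanged are given beside most of the calls. Nothing in the labels says that the replicates of a group were separate cultures, so p-values measure the spread between these samples, which may be technical.

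Keratin filaments are built from pairs of a type I (acidic) and a type II (basic or neutral) protein, and epithelia are recognised by the pairs they make. KRT5 and KRT14 mark the basal layer, KRT8 and KRT18 simple epithelium, KRT6 with KRT16 and KRT17 activated or wounded epithelium, and KRT1 with KRT10 the layers of skin that go on to cornify. In the mammary gland KRT5, KRT14 and KRT17 are known from the basal and myoepithelial layer, and KRT8, KRT18 and KRT19 from the luminal layer.

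RefSeq promoter windows (build GRCh38.p14, 250 bases before to 50 bases after the start) were matched to 10 of the 27 genes in measured loci. The 250 bases before the start are shown for 4 of them, because KRT25 and KRT9 were higher with the MRTFB forms able to bind SRF, KRT85 with the forms unable to bind it, and KRT8 was the type II keratin of highest level with MRTFB dN. Capitals mark GGAATG, a motif bound by TEAD factors. They also mark TATAAA, a sequence recognised by the general transcription machinery.
KRT25 (chr17:40755332-40755581, minus strand): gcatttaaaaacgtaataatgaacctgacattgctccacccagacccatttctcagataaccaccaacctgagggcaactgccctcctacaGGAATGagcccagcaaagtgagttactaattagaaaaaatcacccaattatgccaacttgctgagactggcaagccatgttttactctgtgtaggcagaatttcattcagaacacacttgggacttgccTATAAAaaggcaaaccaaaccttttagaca
KRT9 (chr17:41572060-41572309, minus strand): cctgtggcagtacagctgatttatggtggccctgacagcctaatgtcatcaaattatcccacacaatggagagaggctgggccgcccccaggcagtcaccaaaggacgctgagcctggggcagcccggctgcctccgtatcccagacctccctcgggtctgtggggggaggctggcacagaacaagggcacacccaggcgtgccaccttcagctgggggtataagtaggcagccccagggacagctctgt
KRT85 (chr12:52367482-52367731, minus strand): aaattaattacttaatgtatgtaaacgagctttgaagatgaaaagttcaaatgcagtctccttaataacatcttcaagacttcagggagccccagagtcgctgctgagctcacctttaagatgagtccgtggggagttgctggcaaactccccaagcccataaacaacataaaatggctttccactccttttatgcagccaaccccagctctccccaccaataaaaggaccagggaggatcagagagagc
KRT8 (chr12:52926470-52926719, minus strand): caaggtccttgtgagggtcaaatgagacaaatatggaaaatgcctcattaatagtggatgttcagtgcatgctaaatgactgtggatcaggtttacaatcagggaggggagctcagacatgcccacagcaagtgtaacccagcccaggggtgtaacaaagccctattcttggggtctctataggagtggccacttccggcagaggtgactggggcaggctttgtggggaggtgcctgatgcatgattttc
GGAATG, searched on both strands, was found in the windows of 3 of the 10 keratin genes, against 14.03% of all 35116 windows of the same length. It starts at base -159 of KRT25, at -87 of KRT75 and, past the start, at base 18 of KRT8. TATAAA, searched on the gene's own strand, was found in KRT25, KRT10 and KRT34, at bases -30, -29 and -31, against 7.33% of all windows. The CArG box bound by SRF and the AP-1 motif TGANTCA, both searched on both strands, were in none of the 10 windows, against 1.29% and 7.71% of all windows. A match is a description of these letters only.

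The introduced genes were visible in their libraries. In the 8 MRTFB libraries MKL2, an older symbol of MRTFB, was at 165 to 610.2 FPKM, whereas both Puro vector libraries had 6.60 and 3.66. It was at 299.5 and 165 with MRTFB dN and 286 and 171 with MRTFB dN dPY. The level was higher with MRTFB dN Y305A, at 404 and 294, and with MRTFB dN Y305A/dPY, at 610.2 and 343, within each replicate number. YAP1 was at 625 and 529 with YAP 5SA, whereas the Hygro vector had 32.4 and 23.3. The epithelial markers EPCAM, CDH1 and LAMB3 were at 1 FPKM or more in all 14 libraries, and TP63, a factor of basal epithelial cells, in 12. Of the luminal hormone receptors, PGR was listed at 0 and ESR1 did not pass 1.15 FPKM. Puro vector replicate 1 stood apart from the other libraries, with 58.8% of its FPKM in loci without a name, against 9.99% to 38.6% in the others.

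The number of measurable keratins and their summed level differed between groups. Keratin loci at 1 FPKM or more numbered 20 in each Hygro vector library, 17 in each YAP 5SA library, 14 in each Puro vector library and 15 to 19 in the MRTFB libraries. In all 14 libraries 10 loci passed 1 FPKM, namely KRT5, KRT6A,KRT6B,KRT6C, KRT7, KRT10, KRT13, KRT14,KRT16, KRT15, KRT17, KRT81 and KRT86. The summed keratin level was 4183 and 3865 FPKM in the Puro vector, lower than in any other library, 20841 and 33447 in the Hygro vector, 15268 and 11632 in YAP 5SA, and 25921 to 69124 in the MRTFB libraries. These are bulk RNA values, so fewer cells of a kind and less RNA per cell cannot be told apart.

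The stress keratins KRT6 and KRT17 made up most of the keratin level with MRTFB dN and MRTFB dN dPY, at 67.1% to 72.1% of the sum, against 33.4% and 22.0% in the Puro vector and 47.3% and 51.0% in the Hygro vector. The simple keratins were the largest class in YAP 5SA, at 44.4% and 46.2%. The Hygro vector had 14.1% and 11.7% and the Puro vector 19.2% and 37.6%. Simple keratins were also the largest class in replicate 2 of the Puro vector and of both Y305A forms. In that replicate MRTFB dN Y305A had 72.6% and MRTFB dN Y305A/dPY 71.03%. Replicate 1 of these forms, where KRT8 and KRT18 are listed at 0, had 15.2% and 17.6%. Hair keratins held 30.9% and 15.3% with MRTFB dN Y305A and 40.4% and 15.5% with MRTFB dN Y305A/dPY, against 1.55% to 2.20% with MRTFB dN and MRTFB dN dPY. The Puro vector had 16.01% and 21.7% and the Hygro vector 12.4% and 11.6%. The share in replicate 2 of both Y305A forms was thus below that of the Puro vector. Almost all of the hair class was KRT81, with 10157 of 10408 FPKM in MRTFB dN Y305A replicate 1 and 667 of 669 in Puro vector replicate 1. With MRTFB dN and MRTFB dN dPY KRT81 was at 498 to 1488 FPKM, around the 667 and 827 of the Puro vector, so the low share there is one of a larger keratin sum. The type II sum over the type I sum was 0.408 to 0.665 in the 4 libraries of MRTFB dN and MRTFB dN dPY and 1.53 to 4.11 in the 4 libraries of both Y305A forms. Those last shares and ratios include replicate 1 of both Y305A forms, in which KRT8 and KRT18 are listed at 0.

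**Figure D1:**
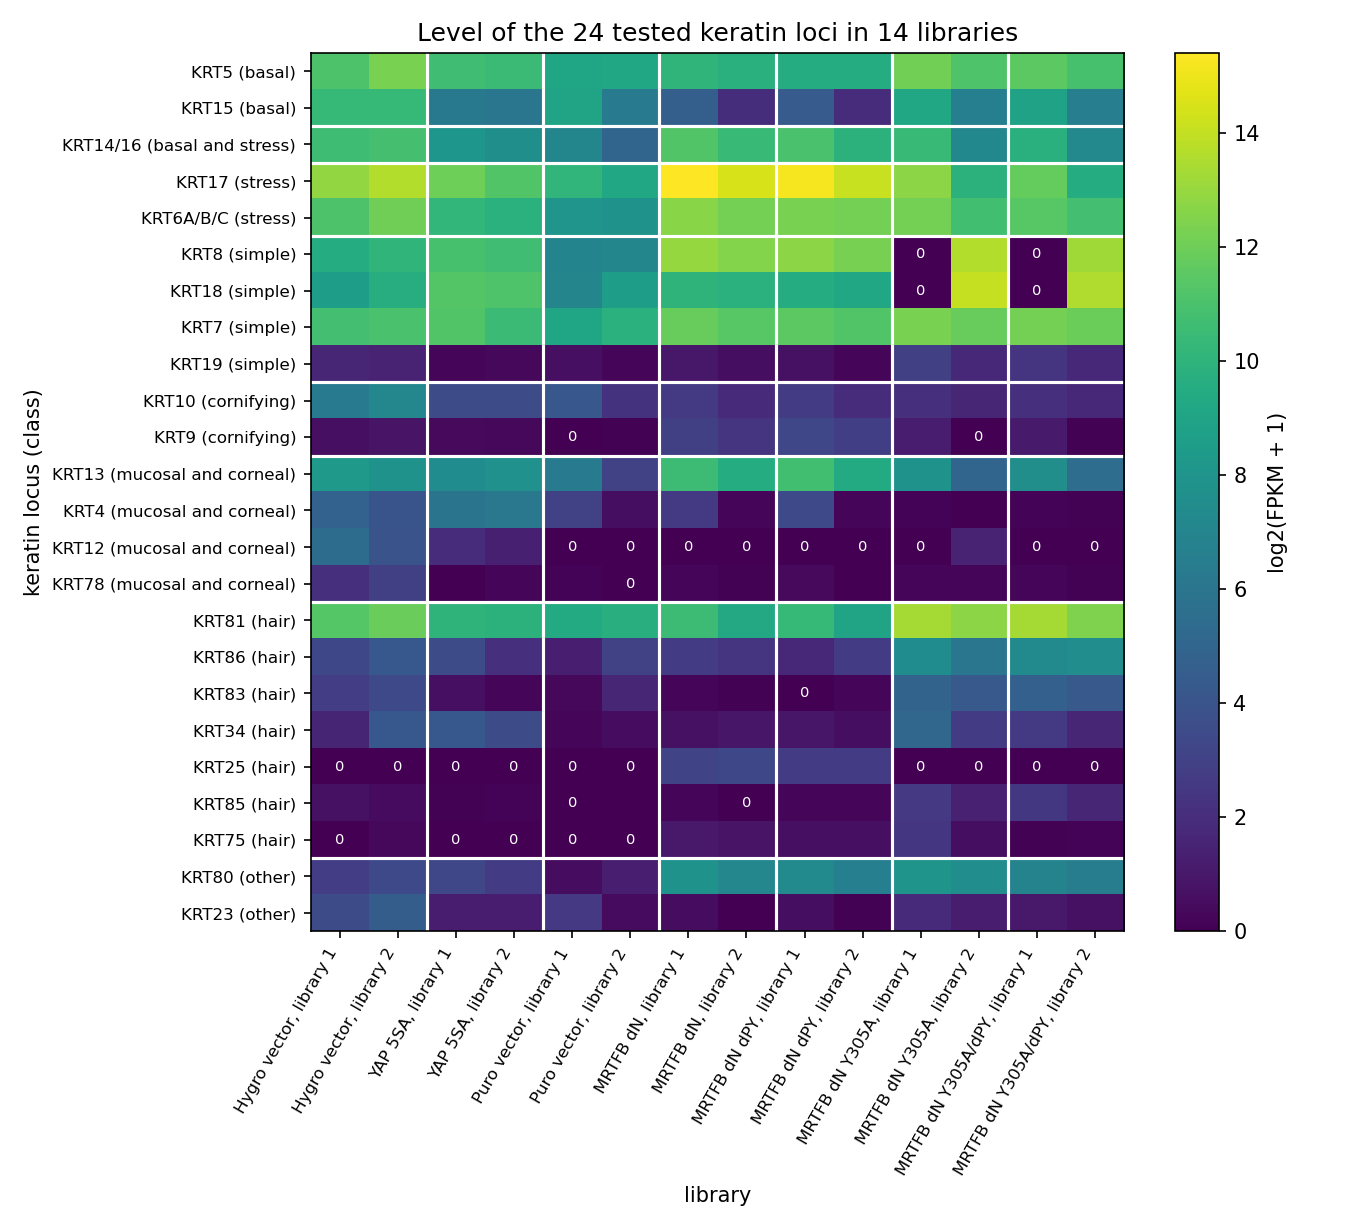
Level of the 24 measured keratin loci (vertical axis, grouped by class) in each of the 14 libraries (horizontal axis), as log2(FPKM + 1) on the colour scale. White lines separate classes and groups, and a printed 0 marks a locus listed at 0, as KRT8 and KRT18 are in replicate 1 of both Y305A forms.

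With YAP 5SA 5 keratins fell against the Hygro vector. Differences were tested with limma on log2(FPKM + 1) over 13137 named loci, so each difference below is on that scale and understates the change of low genes. Of the 24 keratin loci 0 were called higher and 5 lower than in the Hygro vector at an adjusted p under 0.05, against 8.27% of all tested loci called, 3.93% higher and 4.34% lower, and 10 keratin loci had an unadjusted p under 0.05. The median keratin difference was -1.04, against -0.01 over all loci. Leaving out replicate 1 of YAP 5SA gave 3 calls, and leaving out replicate 2 gave 1. With the Puro vector as control instead, YAP 5SA gave 3 keratins higher and 0 lower, where 5.57% and 4.26% of all loci were called, and 0 calls were shared with the Hygro comparison.

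With MRTFB dN 8 keratin loci rose and 1 fell against the Puro vector, where 36.8% of all loci were called, 21.8% higher and 15% lower. MRTFB dN dPY gave the same numbers, 8 and 1, against 35.8% of all loci, 21% higher and 14.8% lower. The median keratin differences were 0.61 and 0.38, against 0.09 and 0.07 over all loci. MRTFB dN Y305A gave 11 keratins higher and 0 lower, against 25.2% of all loci, 14.2% higher and 11% lower, with a median of 1.68 against 0.10. MRTFB dN Y305A/dPY gave 9 and 0, against 26.4% of all loci, 15% higher and 11.4% lower, with a median of 1.29 against 0.08. These 4 comparisons share their Puro vector libraries. The count was 3 for MRTFB dN Y305A without its replicate 1 and 3 for MRTFB dN Y305A/dPY without its replicate 1.

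The vectors themselves differed in their keratins. Against the Hygro vector 0 keratins were higher and 10 lower in the Puro vector, where 14.2% of all loci were called, 5.69% higher and 8.55% lower, with a keratin median of -2.47 against -0.07. The 10 are KRT5, KRT6A,KRT6B,KRT6C, KRT10, KRT12, KRT14,KRT16, KRT17, KRT23, KRT78, KRT80 and KRT83, and the count was 4 without Hygro vector replicate 2. With the Hygro vector as control MRTFB dN gave 3 keratins higher and 7 lower (12% and 7.09% of all loci) and MRTFB dN dPY 3 and 8 (12.3% and 8.25%). MRTFB dN Y305A gave 2 and 4 (1.33% and 1.28% of all loci) and MRTFB dN Y305A/dPY 2 and 4 (1.29% and 1.38%). Calls held in the same direction against both vectors for 4 loci with MRTFB dN, KRT80, KRT25, KRT9 and KRT15, and for 4 with MRTFB dN dPY. With each Y305A form they held for 2 loci, KRT80 and KRT86. The share of all loci called in the same direction against both vectors is not given here, so these counts stand without a background.

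Of the basal keratins KRT5 was called higher than in the Puro vector with both Y305A forms, and KRT15 lower with both SRF-binding forms. KRT5, the type II keratin of basal cells, stood at 2161 and 5085 FPKM in the Hygro vector, 1622 and 1428 in YAP 5SA, and 554 and 598 in the Puro vector. It stood at 1085 and 874 with MRTFB dN, 748 and 748 with MRTFB dN dPY, 4364 and 2316 with MRTFB dN Y305A, and 2979 and 1971 with MRTFB dN Y305A/dPY. The 4 libraries of both Y305A forms were above all 6 libraries of the Puro vector, MRTFB dN and MRTFB dN dPY. KRT5 rose by 2.46 (SE 0.52, adjusted p = 0.01) with MRTFB dN Y305A and by 2.07 (SE 0.52, adjusted p = 0.018) with MRTFB dN Y305A/dPY against the Puro vector. Neither call held against the Hygro vector, where the differences were -0.060 and -0.45. With the Hygro vector as control KRT5 fell with MRTFB dN (-1.77, adjusted p = 0.038) and MRTFB dN dPY (-2.15, adjusted p = 0.015), whereas it differed by 0.76 and 0.38 from the Puro vector, which did not pass. The first of the 2 rises was lost without MRTFB dN Y305A replicate 1 (adjusted p = 0.12), and the second without Puro vector replicate 1 (0.064) or MRTFB dN Y305A/dPY replicate 1 (0.15).

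KRT15, a type I keratin of basal and stem-like epithelial cells, was the keratin that fell with MRTFB dN and MRTFB dN dPY. Its locus, listed as KRT15,MIR6510, stood at 1285 and 1258 FPKM in the Hygro vector, 72.8 and 65.6 in YAP 5SA, and 515 and 83.9 in the Puro vector. It stood at 24.3 and 3.06 with MRTFB dN and 20.3 and 2.91 with MRTFB dN dPY, below every other library. With MRTFB dN Y305A it stood at 586 and 99.6, and with MRTFB dN Y305A/dPY at 475 and 93.2, which overlap the Puro vector. The fall with MRTFB dN was 20.7-fold on FPKM + 1 (log2 difference -4.37, SE 1.23, adjusted p = 0.019), and with MRTFB dN dPY 22.9-fold (-4.52, SE 1.23, adjusted p = 0.016). Both calls held with the Hygro vector as control, at -6.97 and -7.12 (adjusted p = 0.0025 and 0.0021). Against the Puro vector the call with MRTFB dN was lost without Puro vector replicate 1 (adjusted p = 0.14) or MRTFB dN replicate 2 (0.13), and that with MRTFB dN dPY without Puro vector replicate 1 (0.13) or MRTFB dN dPY replicate 2 (0.11). KRT15 in YAP 5SA differed by -4.18 (SE 1.23) from the Hygro vector, which did not pass (adjusted p = 0.063), although the groups did not overlap.

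KRT14 and KRT16, the type I partners of KRT5 in basal cells and of KRT6 in activated ones, share 1 locus in the table and cannot be separated. KRT14,KRT16 stood at 1539 and 1843 FPKM in the Hygro vector, 267 and 206 in YAP 5SA, and 133 and 31.0 in the Puro vector. It stood at 2336 and 1327 with MRTFB dN, 1993 and 940.3 with MRTFB dN dPY, 1403 and 145 with MRTFB dN Y305A, and 884 and 148 with MRTFB dN Y305A/dPY. Replicate 1 was above replicate 2 in the Puro vector and in all 4 MRTFB forms, and within each replicate number both Y305A forms lay between the Puro vector and MRTFB dN. The locus rose 27.0-fold with MRTFB dN (4.75, SE 1.09, adjusted p = 0.0072) and 21.0-fold with MRTFB dN dPY (4.39, SE 1.09, adjusted p = 0.011) against the Puro vector. Against the Hygro vector the differences were 0.06 and -0.30, which did not pass. The first call was lost without MRTFB dN replicate 1 (adjusted p = 0.064), and the second without Puro vector replicate 2 (0.067) or MRTFB dN dPY replicate 1 (0.077). The difference of -2.84 in YAP 5SA did not pass (adjusted p = 0.14). KRT5 over KRT14,KRT16 was 0.376 to 0.795 in the 4 libraries of MRTFB dN and MRTFB dN dPY and 1.40 to 19.3 in the other 10.

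Of all keratins KRT17 was the most abundant in each library of MRTFB dN and MRTFB dN dPY. This stress keratin, a type I keratin of basal, wounded and hair follicle epithelium, stood at 43206 and 22205 FPKM with MRTFB dN and at 36889 and 17584 with MRTFB dN dPY. The Puro vector had 1139 and 606, the Hygro vector 7662 and 12743, and YAP 5SA 4021 and 2366. MRTFB dN Y305A had 6700.1 and 955 and MRTFB dN Y305A/dPY 3505 and 735, so each had 1 library within the range of the Puro vector. KRT17 rose 37.2-fold with MRTFB dN (5.22, SE 1.03, adjusted p = 0.0035) and 30.6-fold with MRTFB dN dPY (4.94, SE 1.03, adjusted p = 0.0047) against the Puro vector. Against the Hygro vector KRT17 differed by 1.65 and 1.37 (adjusted p = 0.31 and 0.4), in both cases with the higher values in the MRTFB libraries and without overlap.

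The locus KRT6A,KRT6B,KRT6C holds the 3 near-identical type II keratins induced in wounded epithelium. It stood at 2204 and 4300.4 FPKM in the Hygro vector, 1157 and 904 in YAP 5SA, and 256 and 243 in the Puro vector. It stood at 6555 and 4615 with MRTFB dN, 5066 and 4718 with MRTFB dN dPY, 4603 and 1717 with MRTFB dN Y305A, and 2720.4 and 1781 with MRTFB dN Y305A/dPY. All 8 MRTFB libraries were above both Puro vector libraries, and those of both Y305A forms overlapped the Hygro vector or lay around it. Against the Puro vector KRT6A,KRT6B,KRT6C rose by 4.45 with MRTFB dN (SE 0.58, adjusted p = 3e-04), 4.29 with MRTFB dN dPY (adjusted p = 4e-04), 3.49 with MRTFB dN Y305A (adjusted p = 0.005) and 3.13 with MRTFB dN Y305A/dPY (adjusted p = 0.0059). Against the Hygro vector none of the 4 passed, and the last 2 differences were -0.13 and -0.48. Without their own replicate 1 the calls of both Y305A forms were lost (adjusted p = 0.071 and 0.068). KRT6A,KRT6B,KRT6C over KRT17 was 0.137 to 0.402 in the vector, YAP 5SA, MRTFB dN and MRTFB dN dPY libraries and 0.687 to 2.42 in the libraries of both Y305A forms.

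**Figure D2:**
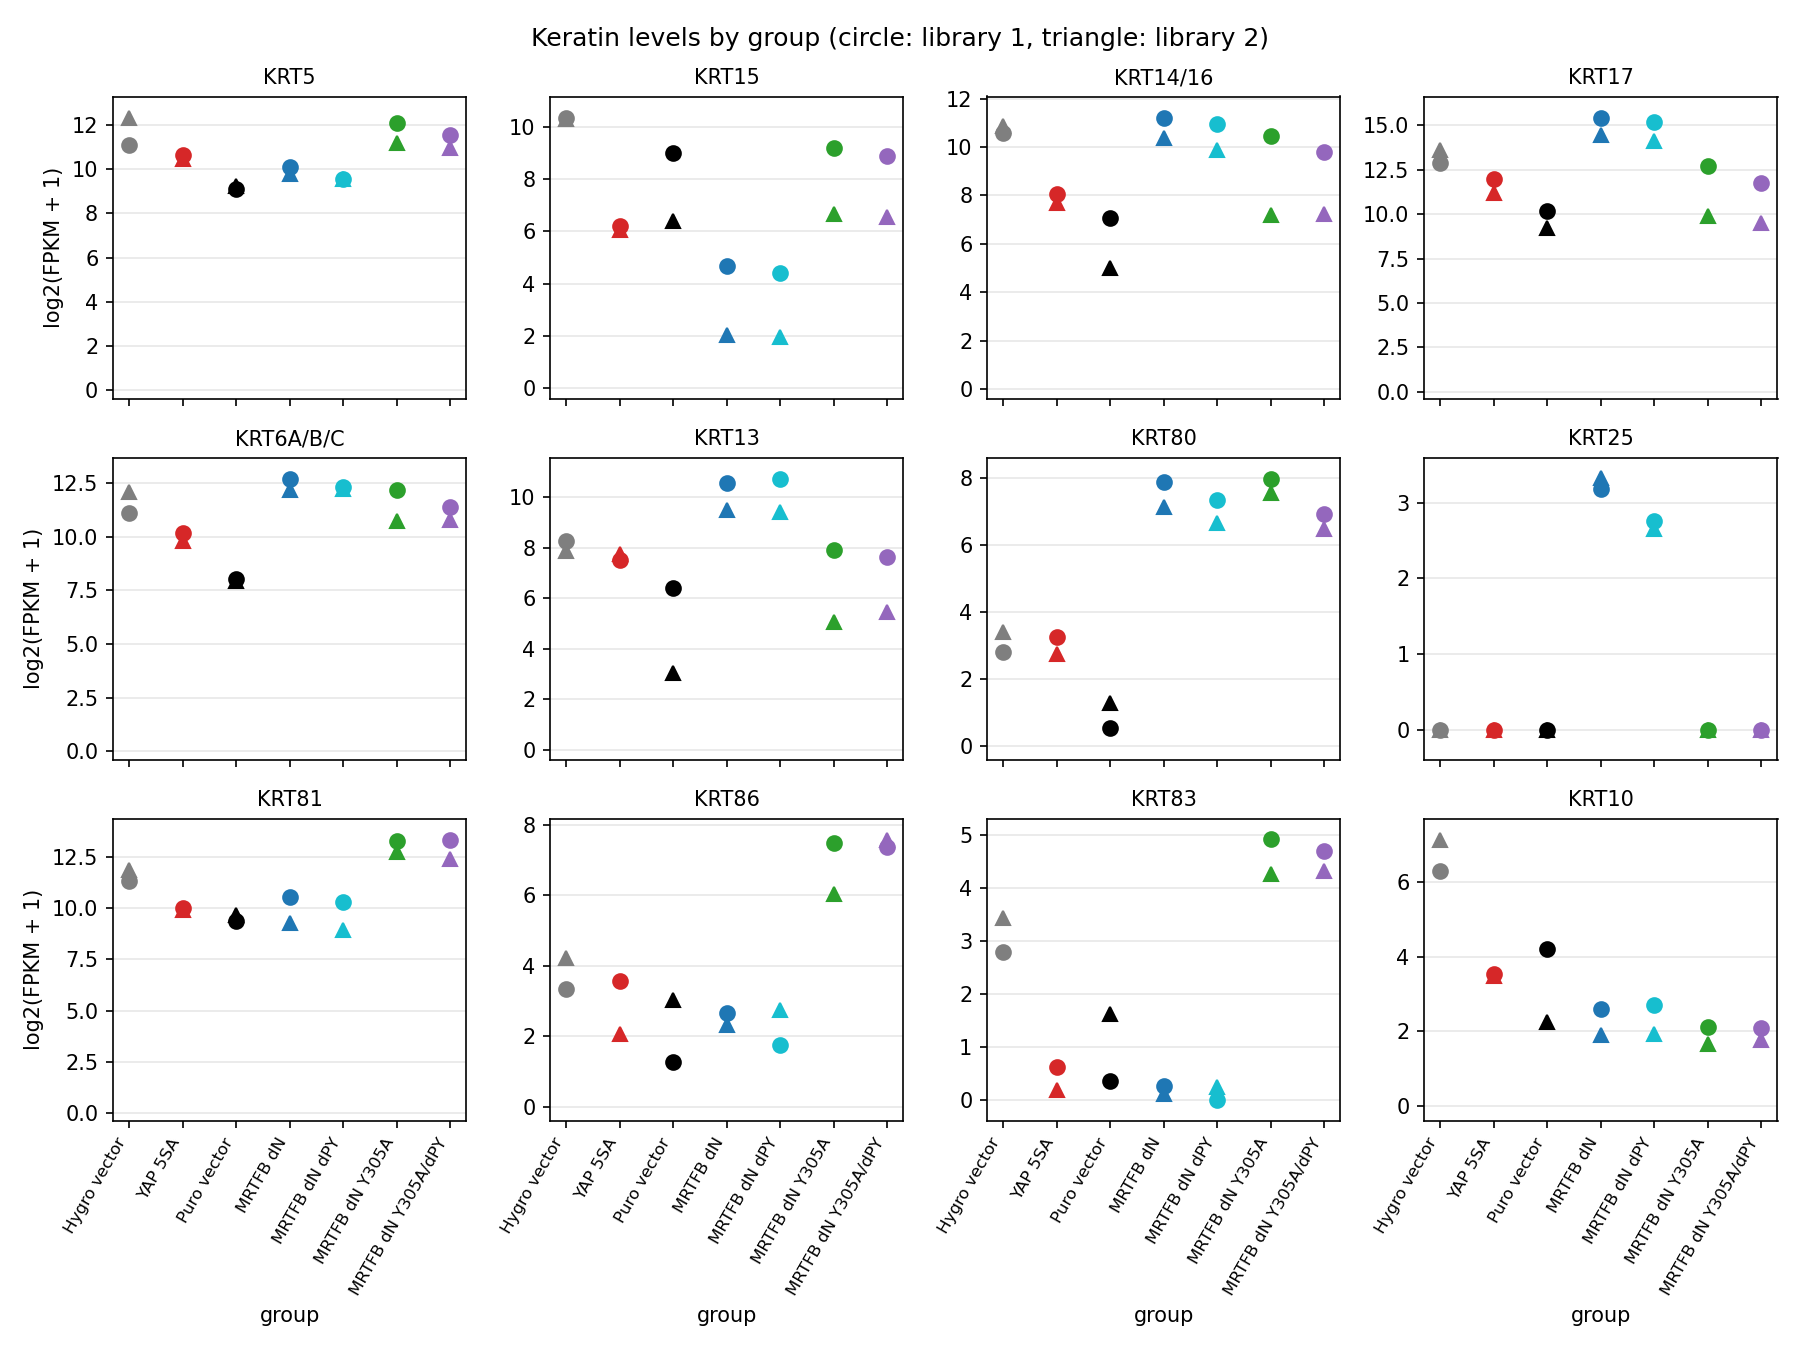
Levels of 12 keratin loci, as log2(FPKM + 1) on the vertical axis of each panel, by group on the horizontal axis; circles are replicate 1 and triangles replicate 2, with no mean drawn. KRT25 is above 0 in 4 libraries, those of MRTFB dN and MRTFB dN dPY, while KRT81, KRT86 and KRT83 are highest in the 4 libraries of both Y305A forms.

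The simple keratins KRT8 and KRT18, each other's partner in simple and luminal epithelium, changed their ratio between groups. KRT8 stood at 739.6 and 1093 FPKM in the Hygro vector, 1939 and 1632 in YAP 5SA, and 122 and 133 in the Puro vector. It stood at 8041 and 5877 with MRTFB dN and 6672 and 4750.3 with MRTFB dN dPY. KRT18 stood at 401 and 770.5 in the Hygro vector, 2497 and 2266 in YAP 5SA, 127 and 402 in the Puro vector, 1034 and 898 with MRTFB dN, and 738 and 591 with MRTFB dN dPY. KRT8 over KRT18 was 6.54 to 9.04 in the 4 libraries of MRTFB dN and MRTFB dN dPY, 0.776 and 0.720 in YAP 5SA, 1.84 and 1.42 in the Hygro vector, and 0.959 and 0.330 in the Puro vector.

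In the Y305A forms KRT8 and KRT18 were listed at 0 in replicate 1 and were among the most abundant keratins in replicate 2. KRT8 was 12554.5 FPKM in replicate 2 of MRTFB dN Y305A and 9623 in that of MRTFB dN Y305A/dPY, and KRT18 was 16608 and 12151. KRT8 over KRT18 was 0.756 and 0.792 there. The other named loci listed at 0 in 1 library and at 100 FPKM or more in its pair, outside the empty run described under processing, were all loci of short RNAs such as snoRNAs and miRNAs. Whether these zeros are failed estimates was not tested. EIF4B, a translation factor gene that lies near KRT8 and KRT18, was at 40.8 to 92.8 FPKM in all 14 libraries.

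The 2 zeros of each gene widen its error in every comparison of the fit that keeps them (SE 4.11 for KRT8 and 4.23 for KRT18), and neither gene was called in any. With those zeros treated as missing, a treatment chosen after the data were seen, KRT8 rose by 5.75 with MRTFB dN (53.7-fold, SE 0.47, adjusted p = 6.8e-05; 0.29 with the zeros kept) and by 5.46 with MRTFB dN dPY (adjusted p = 8.7e-05; 0.32 with the zeros kept) against the Puro vector. KRT8 also passed against the Hygro vector in that fit, by 2.93 (adjusted p = 0.0031) and 2.64 (adjusted p = 0.005). KRT18 rose by 2.09 with MRTFB dN (adjusted p = 0.026; 0.73 with the zeros kept), and its differences against the Hygro vector, 0.79 and 0.25, did not pass. For the Y305A forms that fit rests on 1 library each, which is assumed to vary like the others: against the Puro vector KRT8 rose by 6.62 and 6.23 (adjusted p = 0.00068 and 0.00085) and KRT18 by 6.19 and 5.74 (adjusted p = 0.0026 and 0.003). With the zeros kept these 4 differences were -0.19, -0.38, -0.82 and -1.04. With the Hygro vector as control and the zeros missing, KRT8 was 3.80 and 3.42 higher (adjusted p = 0.013 and 0.022) and KRT18 4.90 and 4.45 higher (adjusted p = 0.012 and 0.021). In YAP 5SA KRT18 differed by 2.10 from the Hygro vector without overlap of the groups, which passed in neither fit (adjusted p = 0.84 with the zeros kept and 0.069 with them missing), and KRT8 by 0.98 (0.94 and 0.26).

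**Figure D3:**
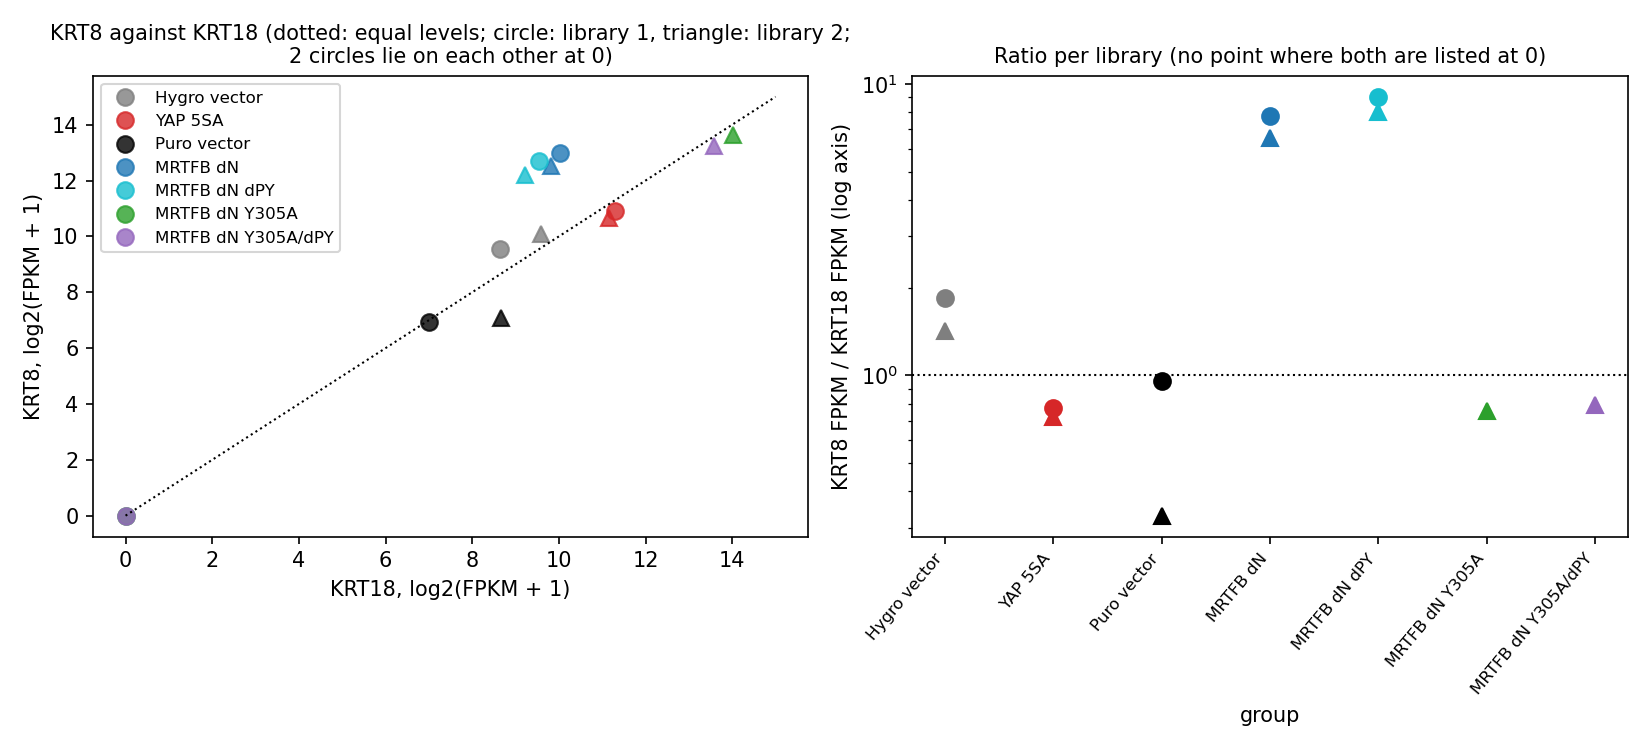
Left, KRT8 on the vertical axis against KRT18 on the horizontal axis, both as log2(FPKM + 1), 1 point a library, with a dotted line at equal levels; right, their FPKM ratio per library on a log axis by group, with circles for replicate 1 and triangles for replicate 2. MRTFB dN and MRTFB dN dPY lie above the line at ratios of 6.54 to 9.04, and both Y305A forms have 1 point each because replicate 1 is listed at 0 for both genes.

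KRT7, the type II keratin of ductal and simple epithelium, was abundant in all libraries and rose with every MRTFB form against the Puro vector. KRT7 stood at 1796 and 2046 FPKM in the Hygro vector, 2349 and 1471 in YAP 5SA, and 553 and 917 in the Puro vector. It stood at 3559 and 2688 with MRTFB dN, 2930.1 and 2350.5 with MRTFB dN dPY, 5105 and 3648 with MRTFB dN Y305A, and 4568 and 3910.5 with MRTFB dN Y305A/dPY. All 8 MRTFB libraries were above the other 6, by a narrow gap from 2349 to 2350.5. The rises of KRT7 were 2.12, 1.88, 2.60 and 2.57 (SE 0.50 each, adjusted p = 0.0085, 0.015, 0.0079 and 0.0073). Each was lost without replicate 1 of its own form (adjusted p = 0.074, 0.096, 0.09 and 0.073), that of MRTFB dN dPY also without Puro vector replicate 1 (0.065), and none passed against the Hygro vector, where they ranged from 0.45 to 1.17. KRT19, the type I keratin of luminal cells that pairs with KRT7, was near 1 FPKM: it was 2.09 and 1.76 in the Hygro vector, 0.171 and 0.250 in YAP 5SA, 0.552 and 0.155 in the Puro vector, and 0.979, 0.463, 0.600 and 0.159 with MRTFB dN and MRTFB dN dPY. KRT19 was 6.50 and 2.43 with MRTFB dN Y305A and 3.88 and 2.49 with MRTFB dN Y305A/dPY, above every other library, and rose by 1.92 (adjusted p = 0.0071) and 1.63 (adjusted p = 0.011) against the Puro vector. Both calls were lost without replicate 1 of the form (adjusted p = 0.077 and 0.099), and the differences from the Hygro vector, 0.80 and 0.50, did not pass (0.36 and 0.57).

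The hair keratins KRT81, KRT86, KRT83 and KRT85 stood highest with the MRTFB forms unable to bind SRF. These type II keratins belong to the hair shaft, and KRT81, KRT86 and KRT83 are near-identical copies, so reads may be split between them and their separate values are uncertain. KRT81 stood at 2557 and 3818 FPKM in the Hygro vector, 1047 and 970.4 in YAP 5SA, 667 and 827 in the Puro vector, 1488 and 618 with MRTFB dN, and 1274 and 498 with MRTFB dN dPY. It stood at 10157 and 6821 with MRTFB dN Y305A and 10263 and 5398 with MRTFB dN Y305A/dPY, above the other 10 libraries. KRT81 rose by 3.48 (SE 0.63, adjusted p = 0.0066) and 3.32 (SE 0.63, adjusted p = 0.0066) against the Puro vector. Both calls were lost without replicate 1 of the form (adjusted p = 0.077 and 0.073), and with the Hygro vector as control the differences were 1.41 and 1.25, which did not pass (0.35 and 0.39).

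KRT86 stood at 9.10 and 17.8 FPKM in the Hygro vector, 10.9 and 3.22 in YAP 5SA, 1.43 and 7.23 in the Puro vector, 5.38 and 4.0 with MRTFB dN, and 2.37 and 5.73 with MRTFB dN dPY. It stood at 180.2 and 65.1 with MRTFB dN Y305A and at 167 and 190.0 with MRTFB dN Y305A/dPY. The highest of the other 10 libraries had 17.8. KRT86 rose by 4.61 (SE 0.69, adjusted p = 0.0035) and 5.32 (SE 0.69, adjusted p = 0.0018) against the Puro vector, and by 2.99 (adjusted p = 0.047) and 3.70 (adjusted p = 0.022) with the Hygro vector as control. Both calls against the Puro vector held without each library in turn.

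KRT83 was 5.93 and 9.76 FPKM in the Hygro vector, 0.530 and 0.140 in YAP 5SA, 0.270 and 2.09 in the Puro vector, and 0 to 0.195 with MRTFB dN and MRTFB dN dPY. It was 29.2 and 18.3 with MRTFB dN Y305A and 25.1 and 18.9 with MRTFB dN Y305A/dPY, and rose by 3.61 (SE 0.41, adjusted p = 0.0012) and 3.53 (SE 0.41, adjusted p = 0.0011) against the Puro vector. With the Hygro vector as control KRT83 differed by 1.49 and 1.40, which did not pass (adjusted p = 0.091 and 0.11). It fell by 2.71 on the log2 scale in YAP 5SA against the Hygro vector (SE 0.41, adjusted p = 0.0041), a call lost without YAP 5SA replicate 2 (0.053), and differed by -0.58 from the Puro vector (0.38). KRT85, a keratin of the hair cortex, was 4.94 and 1.65 FPKM with MRTFB dN Y305A and 4.69 and 2.10 with MRTFB dN Y305A/dPY, and at most 0.628 in the other libraries. KRT85 rose by 1.96 (adjusted p = 0.0071) and 2.05 (adjusted p = 0.0051), both lost without replicate 1 of the form (0.077 and 0.058), and differed by 1.42 and 1.51 from the Hygro vector, which did not pass (0.072 and 0.058). KRT34, a type I hair cortex keratin, was 32.3 and 5.37 FPKM with MRTFB dN Y305A, 5.24 and 2.18 with MRTFB dN Y305A/dPY, 2.08 and 18.1 in the Hygro vector, 17.6 and 10.4 in YAP 5SA, and below 1 in the other 6 libraries. KRT34 rose by 3.53 with MRTFB dN Y305A (SE 0.84, adjusted p = 0.015), a call lost without Puro vector replicate 1 (0.08) or MRTFB dN Y305A replicate 1 (0.15), and differed by 0.92 from the Hygro vector (0.72).

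The summed level of the endothelial markers CDH5, PECAM1 and VWF was higher in the MRTFB libraries than in the vectors. It was 5.04 and 8.47 FPKM with MRTFB dN Y305A and 4.63 and 14.8 with MRTFB dN Y305A/dPY. It was 2.81 and 2.84 with MRTFB dN, and 0.760 to 1.31 with MRTFB dN dPY, against 0.211 to 0.285 in the Puro vector. With both Y305A forms almost all of it was CDH5, which was at 1 FPKM or more in 7 libraries. PECAM1 and VWF did not pass 0.211 and 0.234 in any library. A part of such cells in the hair keratin levels was not tested.

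KRT25 and KRT9, both type I, had their highest levels with the SRF-binding forms. KRT25, a keratin of the inner root sheath of the hair follicle, was listed at 0 in 10 libraries and was 8.08 and 9.07 FPKM with MRTFB dN and 5.79 and 5.32 with MRTFB dN dPY. KRT25 was called higher with MRTFB dN (adjusted p = 5.6e-07) and MRTFB dN dPY (adjusted p = 2e-06) against either vector, and no fold is given because the vectors are listed at 0. The 10 libraries at 0 show no spread and narrow the shared error of KRT25 (SE 0.17). Its small p-values therefore do not measure the spread between replicates at these levels. KRT9, known from the skin of palms and soles, was 6.49 and 4.18 FPKM with MRTFB dN and 8.53 and 6.11 with MRTFB dN dPY, and 0 to 1.26 in the other 10 libraries. KRT9 rose by 2.60 (SE 0.41, adjusted p = 0.001) and 3.0 (SE 0.41, adjusted p = 0.00042) against the Puro vector and, with the Hygro vector as control, by 1.90 (adjusted p = 0.0081) and 2.30 (adjusted p = 0.0025). The promoter windows printed above hold a GGAATG and a TATAAA for KRT25 and neither for KRT9. The kept locus of KRT75, a hair follicle keratin, was 4.49 and 0.512 FPKM with MRTFB dN Y305A and at most 1.04 in the other libraries. It was called higher with MRTFB dN Y305A (adjusted p = 0.031), where the Puro vector is listed at 0, and lost the call without Puro vector replicate 1 (0.11), Puro vector replicate 2 (0.064) or MRTFB dN Y305A replicate 1 (0.19). Its difference from the Hygro vector was 1.37 (adjusted p = 0.16). A second locus named KRT75 was 0.336 and 3.01 FPKM with MRTFB dN, 1.11 and 0.995 with MRTFB dN dPY, and listed at 0 in all other libraries. The 10 nearest loci of that second locus with a known strand are on the plus strand, whereas RefSeq gives KRT75 on the minus strand. Whether its reads belong to KRT75 is uncertain.

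KRT80, a type II keratin of differentiating epithelia, rose with all 4 MRTFB forms against both vectors. KRT80 stood at 5.96 and 9.59 FPKM in the Hygro vector, 8.65 and 5.76 in YAP 5SA, and 0.451 and 1.44 in the Puro vector. It stood at 234 and 139.7 with MRTFB dN, 159.9 and 99.5 with MRTFB dN dPY, 249 and 185 with MRTFB dN Y305A, and 119.6 and 88.1 with MRTFB dN Y305A/dPY. All 8 MRTFB libraries were above all 6 others. The rises against the Puro vector were 6.60, 6.08, 6.84 and 5.78 (SE 0.40 each, adjusted p = 1.3e-06, 2.4e-06, 1.5e-05 and 5.2e-05) and those with the Hygro vector as control 4.40, 3.89, 4.65 and 3.59 (adjusted p = 2.5e-05, 6.4e-05, 0.00048 and 0.0023). None of the 4 calls against the Puro vector was lost without any 1 library.

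KRT13 and KRT4 form the pair of mucosal squamous epithelium and did not move together. KRT13, the type I member, stood at 1527 and 728 FPKM with MRTFB dN and 1687 and 677 with MRTFB dN dPY, against 84.3 and 7.21 in the Puro vector, 306 and 234 in the Hygro vector, and 181 and 217 in YAP 5SA. Both Y305A forms had KRT13 at 242, 32.2, 196 and 43.5, within or near the range of the vectors. KRT13 rose by 5.32 (SE 1.15, adjusted p = 0.0057) and 5.34 (SE 1.15, adjusted p = 0.0056) against the Puro vector, the first lost without MRTFB dN replicate 1 (adjusted p = 0.057), and by 1.97 and 1.99 against the Hygro vector, which did not pass. KRT4, the type II member, was 28.0 and 14.7 FPKM in the Hygro vector, 60.6 and 71.3 in YAP 5SA, 6.89 and 0.464 in the Puro vector, 5.05 and 0.140 with MRTFB dN, 9.36 and 0.190 with MRTFB dN dPY, and at most 0.129 in both Y305A forms. KRT4 was called higher in YAP 5SA against the Puro vector (4.30, SE 1.03, adjusted p = 0.028) but differed by 1.64 from the Hygro vector, which did not pass (adjusted p = 0.38).

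KRT10, KRT78 and KRT23 fell with YAP 5SA and stood below the Hygro vector in all other groups too. KRT10, the type I keratin of cornifying epidermis, stood at 77.7 and 139.8 FPKM in the Hygro vector, 10.6 and 10.3 in YAP 5SA, 17.5 and 3.72 in the Puro vector, and 2.18 to 5.53 in the 8 MRTFB libraries. Its partner KRT1 did not reach 1 FPKM in any library. KRT10 fell 9.19-fold in YAP 5SA against the Hygro vector (-3.20, SE 0.56, adjusted p = 0.0074), and its difference from the Puro vector was 0.30. The call was lost without YAP 5SA replicate 1 (0.054) or replicate 2 (0.071). KRT78, a keratin of stratified epithelium, was 3.21 and 6.56 FPKM in the Hygro vector and 0 to 0.306 elsewhere. KRT78 fell by 2.37 on the log2 scale in YAP 5SA (adjusted p = 0.00088), with a difference of 0.047 from the Puro vector. The libraries near 0 narrow its shared error (SE 0.27), so this small p-value does not measure the spread within the Hygro vector. KRT23 was 10.6 and 22.3 in the Hygro vector, 1.39 and 1.29 in YAP 5SA, 4.79 and 0.389 in the Puro vector, and 0.0339 to 2.63 with the MRTFB forms. KRT23 fell by 2.81 on the log2 scale in YAP 5SA (adjusted p = 0.014), a call lost without Hygro vector replicate 2 (0.085), YAP 5SA replicate 1 (0.08) or YAP 5SA replicate 2 (0.12), and differed by -0.28 from the Puro vector (0.79).

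The locus named KRT12, after a keratin of the cornea, was 41.7 and 14.5 FPKM in the Hygro vector, 2.86 and 1.58 in YAP 5SA, 1.78 in MRTFB dN Y305A replicate 2, and listed at 0 in the other 9 libraries. It was called lower in YAP 5SA against the Hygro vector (-3.03, SE 0.49, adjusted p = 0.0058), a call of KRT12 lost without YAP 5SA replicate 2 (0.071), while the Puro vector is listed at 0. The 10 nearest loci with a known strand in the table's order are all on the plus strand, whereas RefSeq gives KRT12 on the minus strand, and the second locus named KRT12 did not pass 0.336 FPKM. Whether the reads of this locus belong to KRT12 is therefore uncertain.

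**Figure D4:**
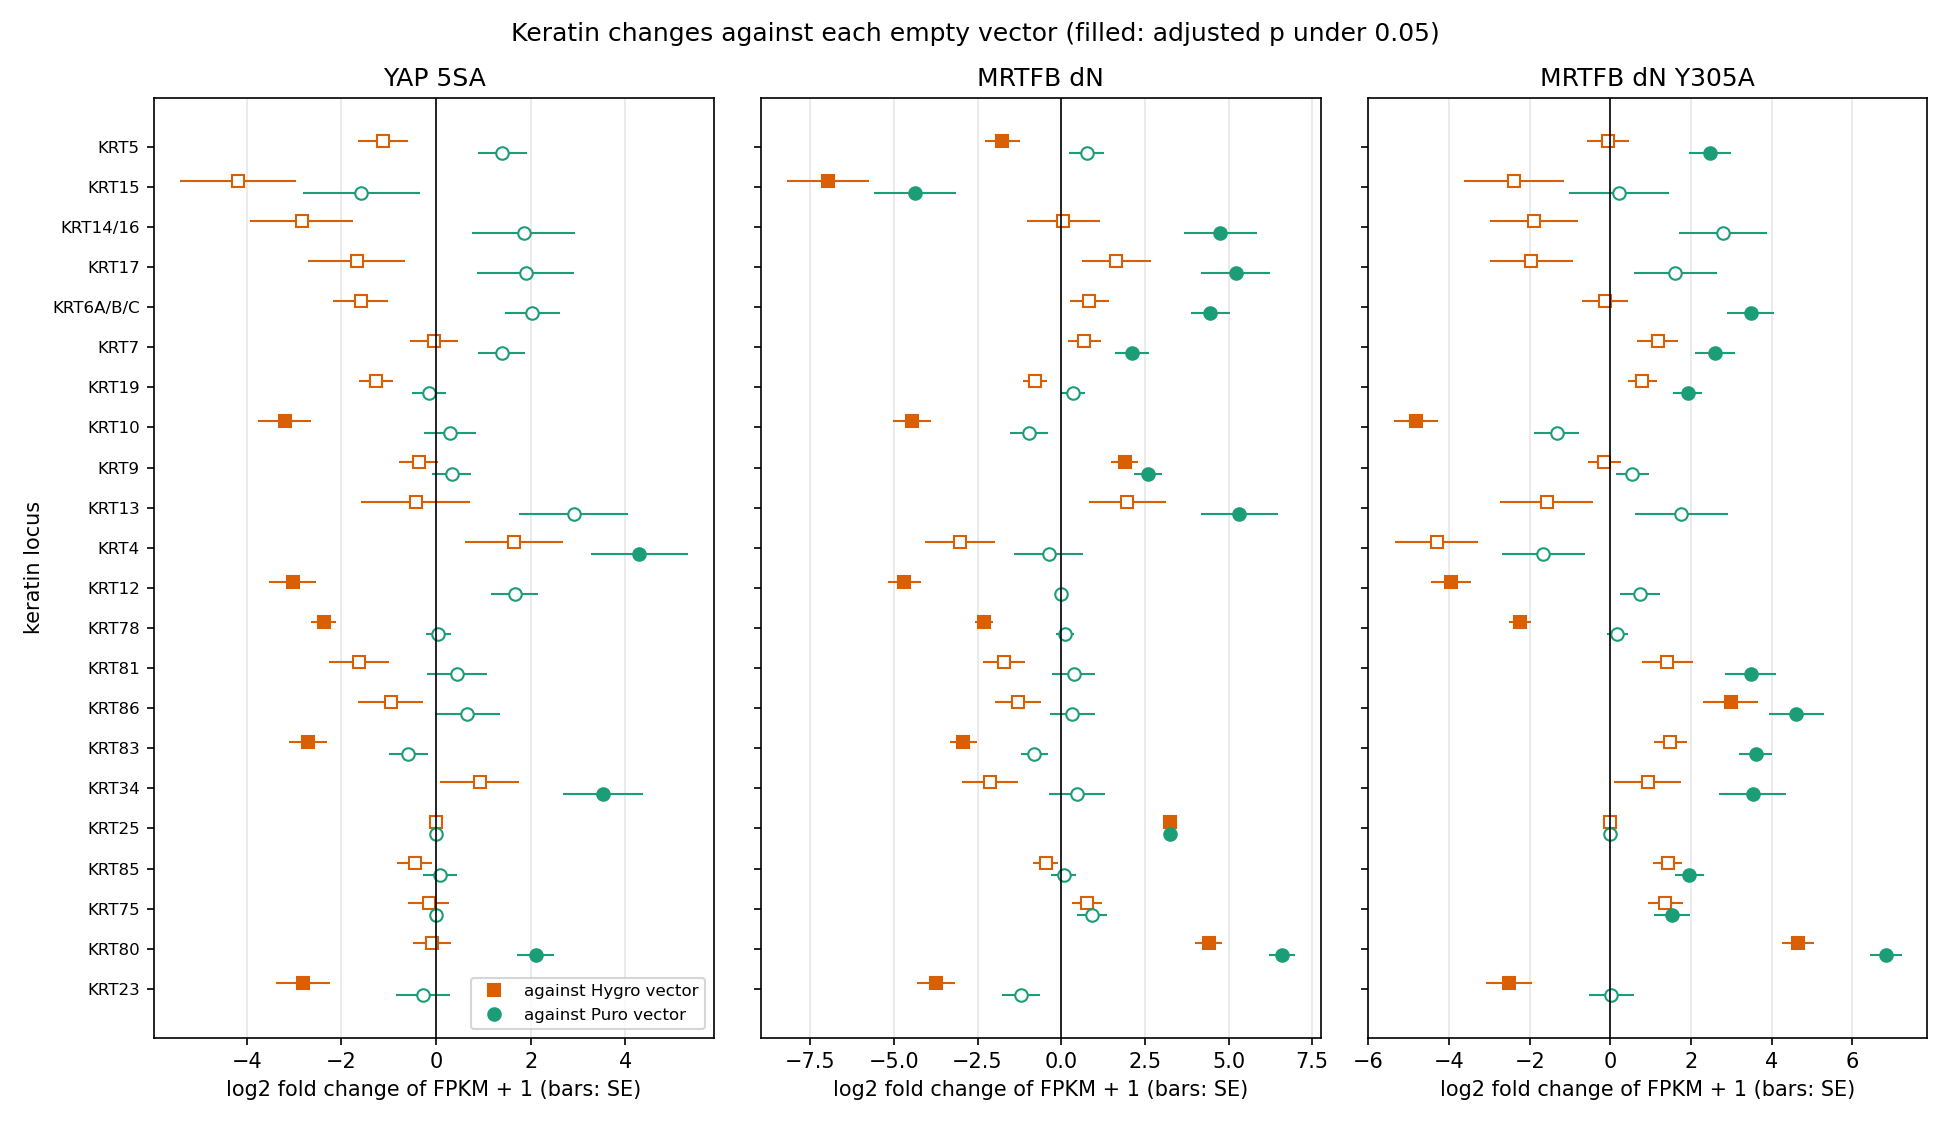
Differences of 22 keratin loci (vertical axis; KRT8 and KRT18 are left out because of their zeros) from the Hygro vector (squares) and the Puro vector (circles) for YAP 5SA, MRTFB dN and MRTFB dN Y305A, as log2 fold change of FPKM + 1 with SE bars on the horizontal axis. Filled symbols passed an adjusted p under 0.05; KRT80 and KRT25 are filled for both vectors with MRTFB dN, while KRT17 and KRT6A,KRT6B,KRT6C are filled for the Puro vector alone.

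The comparison of forms with and without SRF binding needs neither vector. MKL2 was higher in the Y305A forms than in their counterparts, and the part of that level in the differences below was not tested. Against MRTFB dN, MRTFB dN Y305A had 8 keratins higher and 3 lower, where 16.7% of all loci were called, 6.12% higher and 10.6% lower. Against MRTFB dN dPY, MRTFB dN Y305A/dPY had 7 higher and 3 lower, where 17.4% were called, 6.76% higher and 10.7% lower. In both comparisons KRT5, KRT15, KRT19, KRT81, KRT83, KRT85 and KRT86 were higher and KRT9, KRT17 and KRT25 lower, and KRT34 was higher in the first. KRT86 differed by 4.28 and 5.23 (adjusted p = 0.0014 and 0.00037) and KRT83 by 4.41 and 4.39 (adjusted p = 2.8e-05 and 3.1e-05). KRT17 differed by -3.61 and -3.99 (adjusted p = 0.035 and 0.022). KRT15,MIR6510 differed by 4.58 and 4.54 (adjusted p = 0.027 each). KRT80, which rose with every form, differed by 0.25 and -0.29, which did not pass (adjusted p = 0.76 and 0.71). With the zeros of KRT8 and KRT18 as missing KRT18 was also higher, by 4.11 and 4.20 (adjusted p = 0.0056 and 0.005), and KRT8 differed by 0.87 and 0.77, which did not pass. Each Y305A form is then 1 library. With the zeros kept the signs were opposite, at -2.90 and -2.59 for KRT18 and -5.94 and -5.84 for KRT8, and none passed.

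Many of these calls were lost without 1 library. Besides KRT5, KRT17 and KRT15, described below, KRT81 and KRT19 lost their calls in both comparisons in at least 1 such fit. KRT34 and KRT9 did so in the first comparison. The first count, 11 calls, was 7 without MRTFB dN replicate 1, 5 without MRTFB dN replicate 2 and 7 without MRTFB dN Y305A replicate 1. The second, 10 calls, was 5 without MRTFB dN dPY replicate 2. KRT5, at an adjusted p of 0.048 in both, was lost without any 1 library of the compared groups. KRT17 was lost in both comparisons without replicate 1 of the SRF-binding form (0.19 and 0.13), without its replicate 2 (0.093 and 0.055) or without replicate 2 of the Y305A form (0.3 and 0.18). Its differences were then -3.13 and -3.45, -4.09 and -4.52, and -2.21 and -2.86, so leaving out replicate 2 of the SRF-binding form made the difference larger while the call was lost. KRT15,MIR6510 was lost without replicate 2 of the SRF-binding form (0.23 and 0.2) or replicate 1 of the Y305A form (0.19 and 0.18). KRT83, KRT85, KRT86 and KRT25 kept their calls in both comparisons without each library in turn. The error of KRT25 is narrowed by its libraries at 0, and that of KRT85 by its libraries below 1 FPKM.

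Loss of YAP binding gave no keratin call in either background in the main fit, which has no term for the replicate number. Deviations of replicates from their group mean correlated at 0.61 between MRTFB dN and MRTFB dN dPY and at 0.64 between both Y305A forms. MRTFB dN dPY against MRTFB dN had 0 of 24 keratins called by limma, where 0.236% of all loci were called, 0.145% higher and 0.0913% lower, and 1 keratin, KRT25, had an unadjusted p under 0.05. KRT25 was 0.55 lower (SE 0.17, adjusted p = 0.69). MRTFB dN Y305A/dPY, set beside MRTFB dN Y305A, also had 0 called, where 0.0152% of all loci were called lower and 0% higher, and 2 keratins, KRT75 and KRT80, had an unadjusted p under 0.05. KRT80 differed by -1.06 (SE 0.40, adjusted p = 1) and KRT75 by -1.42 (SE 0.44, adjusted p = 1). In the first comparison the 24 differences ran from -0.55 to 0.42, in the second from -1.71 to 0.71, and a missed threshold does not show that the forms act alike. Without MRTFB dN Y305A replicate 2 the second count was 1.

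YAP 5SA and MRTFB dN were set against each other as the difference between their effects, each against its own vector. In 12 keratins the effect of YAP 5SA was lower and in 0 higher, where 29% of all loci were called, 17.9% lower and 11.1% higher, and the keratin median was -2.08 against -0.16. The difference was -7.59 for KRT14,KRT16 (SE 1.54, adjusted p = 0.0058), -6.90 for KRT17 (SE 1.46, adjusted p = 0.0071), -6.68 for KRT80 (SE 0.56, adjusted p = 4e-05) and -6.04 for KRT6A,KRT6B,KRT6C (SE 0.82, adjusted p = 8e-04). None of these 4 was lost without any 1 library. KRT7, KRT13, KRT19 and KRT83, also among the 12, were each lost in several of the fits that leave out 1 library. The difference includes that between the vectors, which cannot be told apart from it: in FPKM KRT14,KRT16 stood at 267 and 206 in YAP 5SA and 2336 and 1327 in MRTFB dN.

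Replicates differed in the same direction in a group of keratins. In the Puro vector and all 4 MRTFB forms replicate 1 was above replicate 2 for KRT15,MIR6510 (5.10-fold to 7.95-fold), KRT13 (2.10-fold to 11.7-fold), KRT14,KRT16 (1.76-fold to 9.65-fold), KRT17 (1.88-fold to 7.02-fold), KRT10 (1.34-fold to 4.69-fold) and KRT6A,KRT6B,KRT6C (1.05-fold to 2.68-fold). KRT5 and KRT7 were higher in replicate 1 in 4 of these 5 groups. The labels name no batch behind the replicate numbers.

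The genes that anchor keratin filaments at cell junctions were taken from a list of desmosome and hemidesmosome components, of which 17 loci were tested. With YAP 5SA 0 rose and 7 fell against the Hygro vector, where 3.93% of all loci were called higher and 4.34% lower. Among them were PERP (-2.22, SE 0.36, adjusted p = 0.0053), JUP (-1.98, SE 0.50, adjusted p = 0.036) and DSP (-1.42, SE 0.33, adjusted p = 0.027), all components of desmosomes. The list's median was -0.96, against -0.01 over all loci. The Puro vector itself had 1 higher and 6 lower than the Hygro vector, where 5.69% and 8.55% of all loci were called, with a median of -1.17. With the Puro vector as control for YAP 5SA 0 were higher and 1 lower, where 5.57% and 4.26% of all loci were called. There 0 of the 7 falls held, and JUP differed by 0.54, which did not pass (adjusted p = 0.52).

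With MRTFB dN and with MRTFB dN dPY 8 of the anchor loci rose and 1, the hemidesmosomal integrin ITGB4, fell against the Puro vector, where 21.8% and 21% of all loci were called higher. With the Hygro vector as control 3 of the 8 rises and the fall of ITGB4 held in each form (ITGB4 -1.93 and -1.95, adjusted p = 0.015 and 0.014). Of all loci 12% and 12.3% were called higher than in the Hygro vector, and 7.09% and 8.25% lower. DSP rose by 1.64 against the Puro vector with MRTFB dN and differed by 0.60 from the Hygro vector (adjusted p = 0.25). With MRTFB dN Y305A 2 rose and 1 fell, where 14.2% and 11% of all loci were called. With MRTFB dN Y305A/dPY 4 rose and 1 fell, where 15% and 11.4% were called. Of the calls of these 2 forms 0 held against the Hygro vector, where 1.33% and 1.29% of all loci were called higher and 1.28% and 1.38% lower. Between forms 2 were higher and 7 lower in MRTFB dN Y305A than in MRTFB dN, where 6.12% and 10.6% of all loci were called. ITGB4 was 2.97 higher (adjusted p = 0.0013), and COL17A1, a hemidesmosomal collagen at the locus COL17A1,MIR936, differed by -3.66 (adjusted p = 0.00069).

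Of the other intermediate filament genes 7 of 18 were measured. Against the Puro vector 4 rose with MRTFB dN, 5 with MRTFB dN dPY and 2 with each Y305A form, where 21.8%, 21%, 14.2% and 15% of all loci were called higher, and 0 changed with YAP 5SA. With the Hygro vector as control 3, 4, 0 and 1 of these rises held, where 12%, 12.3%, 1.33% and 1.29% of all loci were called higher. VIM, the filament of mesenchymal and cultured epithelial cells, was 461 and 584 FPKM with MRTFB dN and 228 and 361 with MRTFB dN dPY, against 1.32 and 15.3 in the Puro vector, 0.742 and 2.69 in the Hygro vector, and at most 11.1 with the Y305A forms. VIM rose by 6.40 (SE 0.82, adjusted p = 0.00026) with MRTFB dN, and by 7.68 (adjusted p = 8.2e-05) with the Hygro vector as control. LMNA, a lamin of the nucleus, rose by 1.39 with MRTFB dN and by 2.22 with MRTFB dN Y305A, but differed by -0.083 and 0.74 from the Hygro vector, which did not pass. Fibroblast markers summed to 3.90 and 6.95 FPKM with MRTFB dN and 1.11 and 2.84 in the Puro vector, with LUM, PDGFRA and PDGFRB below 1 throughout, and their part in the VIM level was not tested.

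Of 16 tested transcription factor loci of stratified epithelium 0 rose and 7 fell with YAP 5SA against the Hygro vector, among them ELF3 (-3.38, SE 0.38, adjusted p = 0.00088) and GRHL3 (-2.26, SE 0.50, adjusted p = 0.021). Of 13 tested cornified envelope loci 0 rose and 4 fell, among them IVL, the envelope precursor involucrin (-2.94, SE 0.47, adjusted p = 0.0053), where 4.34% of all loci were called lower. The Puro vector itself had 1 factor locus higher and 7 lower than the Hygro vector, and 0 envelope loci higher and 3 lower, with medians of -0.84 and -1.64. Of all loci 5.69% were called higher and 8.55% lower there. With the Puro vector as control for YAP 5SA 1 of the 7 factor falls and 0 of the 4 envelope falls held, where 4.26% of all loci were called lower. There IVL differed by 1.16 in the other direction, which did not pass (adjusted p = 0.14).

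With MRTFB dN 3 factors rose and 3 fell against the Puro vector, shares near the 21.8% and 15% of all loci. With MRTFB dN dPY 3 rose and 4 fell, where 21% and 14.8% of all loci were called. With MRTFB dN Y305A 4 rose and 4 fell, and with MRTFB dN Y305A/dPY 4 rose and 1 fell, where 14.2% and 11%, and 15% and 11.4%, of all loci were called. With the Hygro vector as control 2 of the rises and 3 of the falls held with MRTFB dN, and the same numbers with MRTFB dN dPY. Of all loci 12% and 12.3% were called higher there, and 7.09% and 8.25% lower. With MRTFB dN Y305A 0 of the rises and 3 of the falls held, and with MRTFB dN Y305A/dPY 0 and 1. For these 2 forms 1.33% and 1.29% of all loci were called higher than in the Hygro vector, and 1.28% and 1.38% lower. Between forms ELF3 was 3.05 higher in MRTFB dN Y305A than in MRTFB dN (adjusted p = 0.00027) and 4.30 higher in MRTFB dN Y305A/dPY than in MRTFB dN dPY (adjusted p = 2.2e-05). Of the cornified envelope loci 0 rose and 1 fell with MRTFB dN, where 21.8% and 15% of all loci were called. With MRTFB dN dPY 1 rose (21% of all loci), with MRTFB dN Y305A 2 (14.2%) and with MRTFB dN Y305A/dPY 3 (15%), IVL among them each time. With the Hygro vector as control 0 of these rises held with MRTFB dN dPY, 1 with MRTFB dN Y305A and 0 with MRTFB dN Y305A/dPY. Of all loci 12.3%, 1.33% and 1.29% were called higher there. In that comparison 8 envelope loci fell with MRTFB dN and 7 with MRTFB dN dPY, where 7.09% and 8.25% of all loci were called lower. Against the Hygro vector IVL fell with MRTFB dN (-3.04, adjusted p = 0.0011) and MRTFB dN dPY (-2.66, adjusted p = 0.0025). Its differences from the Hygro vector with MRTFB dN Y305A and MRTFB dN Y305A/dPY were -1.13 and -1.15, which did not pass (adjusted p = 0.31 and 0.27).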

How the data were processed

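Poly(A) RNA of 14 MCF-10A samples was sequenced as strand-specific paired reads, per the labels' protocols. The authors deposited 1 table of FPKM for 34071 loci, for which the named tools are Cuffnorm, Cufflinks, TopHat and Bowtie and the build hg19, per the submitters' processing notes. Versions, annotation and library scaling are not given in the sources used here, and FPKM carries no depth, so no counting interval can be given. Near-identical keratins can share reads. MRTFB dN dPY replicate 1 has stretches of the table, called the empty run here, in which its named loci are at 0. They hold 5297 loci, counted with or without a name, and no keratin, and were treated as missing. All remaining zeros entered the fit.

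The fit took the 13137 named loci that reached 1 FPKM in 2 or more libraries, on the scale log2(FPKM + 1), a pseudocount of 1, and used limma 3.58.1 in R 4.3.3: a linear model on group over all 14 libraries, a two-sided moderated test with an intensity trend, 7 residual degrees of freedom, Benjamini-Hochberg adjustment over all tested loci within each of 11 comparisons, and a threshold of 0.05. The fit was tested on simulated data. Tables came from pandas 2.3.3 and numpy 2.4.6 under Python 3.11.15. RefSeq windows came from another build than hg19 and were matched by symbol only. Every keratin locus that passed the filter could be named, with values in each library if it was called or above 100 FPKM, and of the partner lists up to 4 called members of highest mean level. Single values of 1 epithelial marker and 1 factor of the lists are not reported here. The members and lists were chosen with earlier results of these data known. Alternatives were a pseudocount of 0.1, no filter, median-of-ratios scaling, no trend, the compared groups alone, a replicate block, the other vector, the zeros of the empty run kept, each library left out, and, added after the data were seen, isolated zeros as missing.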

Additional observations from a re-analysis of the deposited data

How the results depend on the processing

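Of 86 keratin calls over the 11 comparisons 47 were lost without at least 1 library, a setting in which the lone library left is assumed to vary like the other groups. The counts of keratins called then ran from 1 to 5 for YAP 5SA, 6 to 11 for MRTFB dN, 7 to 10 for MRTFB dN dPY, 3 to 12 for MRTFB dN Y305A and 3 to 11 for MRTFB dN Y305A/dPY, each against its vector; from 5 to 9 for MRTFB dN Y305A against MRTFB dN, 5 to 8 for MRTFB dN Y305A/dPY against MRTFB dN dPY, 0 to 0 for MRTFB dN dPY against MRTFB dN, 0 to 1 for MRTFB dN Y305A/dPY set beside MRTFB dN Y305A, 4 to 10 between the vectors and 8 to 12 for the difference between effects. Without the filter 5 keratins were called for MRTFB dN dPY, 5 for each Y305A form, 5 and 6 for the Y305A forms against their counterparts, 1 for MRTFB dN dPY against MRTFB dN, 5 between the vectors and 6 for the difference between effects; the cause was not tested. In fits of the compared groups alone, with fewer samples to estimate the spread, 1 was called for each Y305A form, 4 and 6 for those forms against their counterparts, and 0 between the vectors. With the other vector 3 were called for YAP 5SA and 6 for MRTFB dN Y305A; directions turned for KRT78 (0.047), KRT12 (1.66) and KRT10 (0.30) in YAP 5SA, for KRT14,KRT16 in MRTFB dN dPY (-0.30), and for KRT6A,KRT6B,KRT6C (-0.13 and -0.48) and KRT5 (-0.060 and -0.45) in the Y305A forms. With isolated zeros as missing KRT18 and KRT8 turned to 6.19 and 6.62 for MRTFB dN Y305A, 5.74 and 6.23 for MRTFB dN Y305A/dPY, and 4.11 and 0.87, and 4.20 and 0.77, against their counterparts. Without 1 library the differences from the Puro vector ran from -7.83 to 6.19 for KRT18 and -7.00 to 6.62 for KRT8 with MRTFB dN Y305A (0.01 for KRT18 without Puro vector replicate 2), and from -7.83 to 5.74 and -7.00 to 6.23 with MRTFB dN Y305A/dPY; those from the counterparts ran from -9.91 to 4.11 and -12.7 to 0.87, and from -9.37 to 4.20 and -12.5 to 0.77. With a replicate block the YAP 5SA count was 8, and 83 of the 86 calls were kept; replicate deviations correlated at 0.32 to 0.64 among the MRTFB groups and at -0.15 to 0.24 elsewhere, and the labels do not tie the numbers to a batch. A pseudocount of 0.1 kept 77 of the 86 calls, the zeros of the empty run 83, and other scaling, no trend and isolated zeros as missing all 86. The depth of the libraries is unknown, so values below 1 FPKM carry no interval.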
